A study of Mus musculus with 26 samples.

Results

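The genes described here encode subunits of the mitochondrial respiratory chain and of ATP synthase, with a few factors that assemble complexes I and II. They are all genes of the count table whose symbol begins with Nduf, Sdh, Uqcr, Cox4, Cox5, Cox6, Cox7, Cox8 or Atp5, without pseudogene symbols that hold -ps. This gave 52 of 16344 genes, and each had UMIs (unique molecular identifiers, which count RNA molecules) in at least 1 cell. Complex I had 20 members, its assembly factors 4, complex II 2, its assembly factors 3, complex III 3, complex IV 12 and ATP synthase 8. The table read here covers mouse chromosomes 1 to 7, 10 and X and the start of 8, so each complex is described from part of its subunits. Cox4i1, Cox5a, Cox7a2, Cox8a, Sdha and Sdhd were not analysed here, nor were the genes of the mitochondrial genome.

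Complexes I to IV pass electrons from NADH and succinate to oxygen and, except complex II, pump protons across the inner mitochondrial membrane. ATP synthase, also called complex V, uses the proton gradient to make ATP. Several complex IV subunits exist as paralogs that are used in different tissues: Cox7a1 is the heart and muscle form, Cox6b2 and Cox7b2 are known from testis, and Cox4i2 is known from lung and responds to low oxygen. In the fetal ovary, germ cells stop mitotic division and enter meiosis over the span studied, while the somatic cells around them form the supporting and stromal lineages.

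The study took single cells of ovaries of female mouse fetuses from E11.5 to E18.5, in 26 libraries. All cells are named WT in the deposited table and all mice carried the BVSC transgenes, Blimp1-mVenus and Stella-ECFP, 2 reporters of germ cells, and no other genotype or treatment was compared. Each stage's cells came from combined gonads of more than 1 embryo, so a library is not an animal, and separate litters for libraries of the same stage are not stated. The sort gate is given in the deposited cell table as BVSC (named for both reporters, 1302 cells), Negative (529 cells) or BV (50 cells, a name that leaves out the Stella reporter). UMIs were summed over the cells of each library, stage and gate into pools of at least 5 cells, which gave 18 BVSC, 17 Negative and 3 BV pools. Each stage had 2 BVSC pools except E14.5 with 4, and 2 Negative pools except E11.5 and E14.5 with 3 and E13.5 with 1. Levels are CPM, counts scaled to the pool's deposited UMI total. The assay reads the 3′ ends of transcripts, 1 end per molecule, so gene length does not scale these counts, but capture can still differ between genes.

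The pools held 446683 to 27498626 UMIs, and a cell had a median of 248294 in the BVSC gate, 169412 in the Negative gate and 186236 in the BV gate. The summed level of the 8 measured germ cell markers was 1409 to 2502 CPM in BVSC pools and 12.4 to 443 CPM in Negative pools. These markers include Dppa3 (Stella) and Prdm1 (Blimp1), the reporter genes, so they are not independent of the sort. They also enter the count below of cells with more UMIs of the other class's markers. The 4 measured early gonadal somatic markers summed to 6.54 to 78.8 CPM in BVSC and 593 to 1517 CPM in Negative pools. Of the cells, 15 BVSC and 29 Negative cells had more UMIs of the other class's markers, and at E18.5 these were 11 of the 44 Negative cells. The cells carry a library name and a number but no barcode sequence, so barcodes shared between libraries were not counted. The BV pool of E11.5, with 5 cells, had 6201 CPM of macrophage markers and 123 CPM of germ cell markers, whereas the 2 BV pools of E14.5 had 2415 and 2467 CPM of germ cell markers. A pool is a sum over its cells, so a lower share of expressing cells and a lower level per cell are not told apart in what follows.

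The sequences before the start sites of 6 complex I and IV genes are shown because these genes carry the results below: Cox7a1, Cox6b2 and Cox7b fell in BVSC pools between E14.5 and E16.5, Ndufa1 rose, Cox7b2 differed most between the gates, and Cox6b1 is the paralog of Cox6b2. Each line gives the 250 bases before the RefSeq start in the GRCm38.p6 build, 5′ to 3′ on the gene's strand, with CG dinucleotides in capitals.

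Cox7a1, chr7:30183921-30184170, plus strand: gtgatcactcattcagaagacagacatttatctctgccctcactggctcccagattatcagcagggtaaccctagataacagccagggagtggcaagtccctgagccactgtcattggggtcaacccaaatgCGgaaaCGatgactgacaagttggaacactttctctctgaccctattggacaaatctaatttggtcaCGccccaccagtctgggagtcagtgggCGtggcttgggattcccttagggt
Cox6b2, chr7:4753095-4753344, minus strand: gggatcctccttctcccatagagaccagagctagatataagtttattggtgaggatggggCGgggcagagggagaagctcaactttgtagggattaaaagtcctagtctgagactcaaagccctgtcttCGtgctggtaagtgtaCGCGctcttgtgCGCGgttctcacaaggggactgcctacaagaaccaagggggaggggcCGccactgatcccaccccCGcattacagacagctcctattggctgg
Cox7b, chrX:106015450-106015699, plus strand: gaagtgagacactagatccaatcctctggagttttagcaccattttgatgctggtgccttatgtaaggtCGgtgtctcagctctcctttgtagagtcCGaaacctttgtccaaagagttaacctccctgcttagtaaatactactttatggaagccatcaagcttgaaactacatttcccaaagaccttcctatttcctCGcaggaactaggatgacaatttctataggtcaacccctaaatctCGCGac
Ndufa1, chrX:37191239-37191488, minus strand: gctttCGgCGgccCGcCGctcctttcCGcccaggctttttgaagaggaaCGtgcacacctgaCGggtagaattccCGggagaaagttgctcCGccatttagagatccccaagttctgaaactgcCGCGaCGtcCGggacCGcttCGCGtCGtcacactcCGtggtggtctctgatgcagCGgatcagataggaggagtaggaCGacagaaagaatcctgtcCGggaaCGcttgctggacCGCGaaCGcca
Cox7b2, chr5:71548206-71548455, minus strand: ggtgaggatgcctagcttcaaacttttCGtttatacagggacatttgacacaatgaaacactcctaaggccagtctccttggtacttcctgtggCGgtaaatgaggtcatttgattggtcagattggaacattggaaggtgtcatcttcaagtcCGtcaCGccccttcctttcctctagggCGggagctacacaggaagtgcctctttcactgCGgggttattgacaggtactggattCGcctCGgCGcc
Cox6b1, chr7:30626115-30626364, minus strand: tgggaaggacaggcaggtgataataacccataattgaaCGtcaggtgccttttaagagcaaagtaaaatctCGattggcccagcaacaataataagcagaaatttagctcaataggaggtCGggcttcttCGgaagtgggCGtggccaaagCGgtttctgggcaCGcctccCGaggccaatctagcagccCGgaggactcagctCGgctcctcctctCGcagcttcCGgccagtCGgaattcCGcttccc

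Ndufa1 had 25 CG dinucleotides in these 250 bases, Cox6b1 14, Cox7b2 9, Cox6b2 8, Cox7b 5 and Cox7a1 4. Over the whole windows of 300 bases (250 before to 50 after the start), 44 of the 52 members matched the RefSeq table, with a median of 18.5 CG dinucleotides against 7 over all 27025 promoters of that table. Cox8b with 2, Cox7b with 5 and Cox7a1 with 7 had the fewest among the members. The letters CGCATGCG, the core of the site of NRF1, a regulator of respiratory genes, were found on either strand in 6 member windows (Ndufa8, Ndufaf5, Ndufaf4, Atp5k, Cox6a1 and Uqcr11), which is 13.6% against 1.91% of all windows. The ETS letters CCGGAAGT, as bound by GABPA, were in 3 (Ndufs3, Uqcrh and Uqcr11; 6.82% against 4%), and AAGATGGCG, as bound by YY1, in 4 (Ndufc1, Atp5j2, Ndufa9 and Ndufs7; 9.09% against 1.49%). None of these motifs is contained in another, and a match describes sequence, not binding. Member windows and all windows were not matched for CG content, so these shares are not like for like.

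The summed levels of the complexes in the BVSC gate are given first, without a test. Complex I, the entry point for electrons from NADH, summed to 7143 ± 691 CPM (SD, n = 2 pools) at E11.5, 8577 ± 566 CPM (n = 4) at E14.5, 9854 ± 341 CPM (n = 2) at E16.5 and 8655 ± 2354 CPM (n = 2) at E18.5. Complex IV, which hands the electrons to oxygen, summed to 3747 ± 29.9 CPM at E11.5, 3821 ± 494 CPM at E14.5, 2815 ± 239 CPM at E15.5 and 3288 ± 224 CPM at E16.5 in the same pools. ATP synthase had stage means of 4328 to 5085 CPM. Between E14.5 and E16.5 the mean of Ndufa1 alone, within complex I, was 526 and 1350 CPM, and within complex IV that of Cox7a1 was 336 and 41.4 CPM. The median log2 difference was 0.08 over the complex I members and -0.19 over those of complex IV. At E18.5 the 2 BVSC pools stood apart: all members together summed to 15556 CPM in library 6 and 22710 CPM in library 26. Markers of other cell types also differed between these pools, whose lowest and highest values were 9.34 and 524 CPM for erythroid and 9.24 and 185 CPM for macrophage markers, and the part of those cells in the spread was not tested.

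In the Negative gate, complex I had stage means of 6567 to 7804 CPM and complex IV of 3449 to 4847 CPM. At E16.5 the complex I sums of the gates did not overlap, with 9613 and 10095 CPM in BVSC and 7173 and 7174 CPM in Negative pools. Complex IV sums did not overlap at that stage in the opposite order, with 3130 and 3446 CPM in BVSC and 3866 and 3949 CPM in Negative pools. In the same orders, complex I also did not overlap at E14.5, E15.5 and E17.5, and complex IV at E12.5, E15.5 and E17.5. At the other stages the sums overlapped. The gates came from separate libraries at E15.5 and E16.5. At E17.5 they shared libraries, with complex I at 8999 and 9482 CPM in BVSC and 7622 and 7986 CPM in Negative pools. As a share of all member UMIs, complex I took 43.3 ± 3.16% in BVSC (SD, n = 18 pools) and 38.9 ± 1.81% in Negative pools (n = 17), and complex IV 17.8 ± 2.55% and 21.8 ± 1.03%. These sums were not tested, since the members were chosen with earlier results of these data known.

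**Figure D1:**
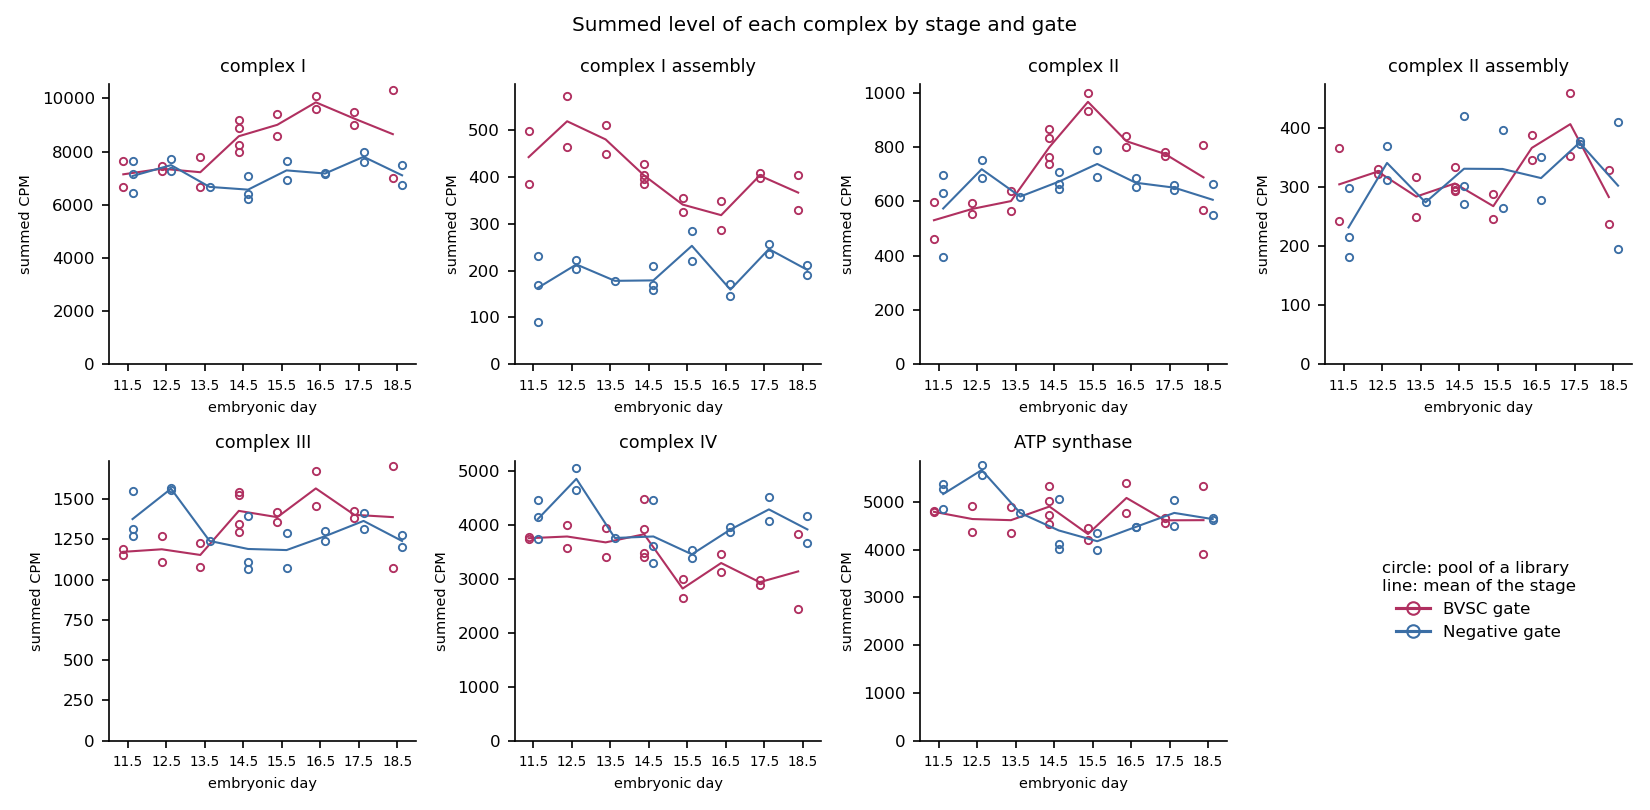
Summed CPM of the measured members of each complex (y axis) by embryonic day (x axis) in BVSC and Negative pools. Each circle is the pool of 1 library and lines join the stage means. Complex I sums of BVSC pools lie above those of Negative pools from E14.5 to E17.5 (at E16.5, 9613 and 10095 against 7173 and 7174 CPM). Complex IV sums lie below at E12.5 and from E15.5 to E17.5. The 2 BVSC pools of E18.5 lie far apart.

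Atp5e, the epsilon subunit of ATP synthase, had the highest mean in BVSC pools at 805 ± 131 CPM (SD, n = 18) and 791 ± 111 CPM in Negative pools (n = 17). Ndufa4, a complex IV subunit first assigned to complex I, had the highest mean in Negative pools at 877 ± 109 CPM and 684 ± 98.4 CPM in BVSC pools. In BVSC pools the leading members of the other complexes were Cox6a1 for complex IV at 728 ± 93.5 CPM, Uqcr11 for complex III at 709 ± 111 CPM, Ndufa1 for complex I at 693 ± 396 CPM and Sdhb, the iron-sulfur subunit of complex II, at 424 ± 76.2 CPM. From Atp5e down to Ndufa1, neighbouring means in the order of all members differed by less than their SDs. The lowest were Cox8b, with at most 2.32 CPM in any pool of the 2 gates, Cox6a2, the muscle form of Cox6a, with at most 10.8 CPM, and Ndufa4l2, the paralog of Ndufa4, with at most 12.9 CPM.

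Members varied to different degrees across the BVSC pools. Atp5d, Ndufb5, Ndufab1 and Cox5b varied least, with coefficients of variation of 9.43%, 9.69%, 11.7% and 11.9%. Among members above 20 CPM, Cox7a1 at 77.7%, Sdhaf1 at 63.1%, Ndufaf6 at 61.9%, Ndufa1 at 57.2% and Sdhaf3 at 56.4% varied most. In Negative pools the coefficients of Ndufa1 and Cox7a1 were 36.2% and 52.4%.

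Which members changed with stage in the BVSC gate was asked first over all 8 stages. By edgeR's quasi-likelihood F test, 16 of 51 tested members differed between stages at an adjusted p under 0.05, while 41.0% of all 10246 tested genes were called. Among the members called were Ndufa1 and Ndufb2 of complex I, its assembly factors Ndufaf1, Ndufaf4 and Ndufaf6, Sdhc of complex II with the assembly factors Sdhaf1 and Sdhaf3, Cox7a1, Cox7b, Cox6b2 and Ndufa4l2 of complex IV, and Atp5b, Atp5c1 and Atp5f1 of ATP synthase. None of the 3 complex III members was called. The median range of fitted stage means was 0.81 log2 over the members and 3.11 over all tested genes. Members and all genes were not matched for level, so these ranges are not like for like.

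**Figure D2:**
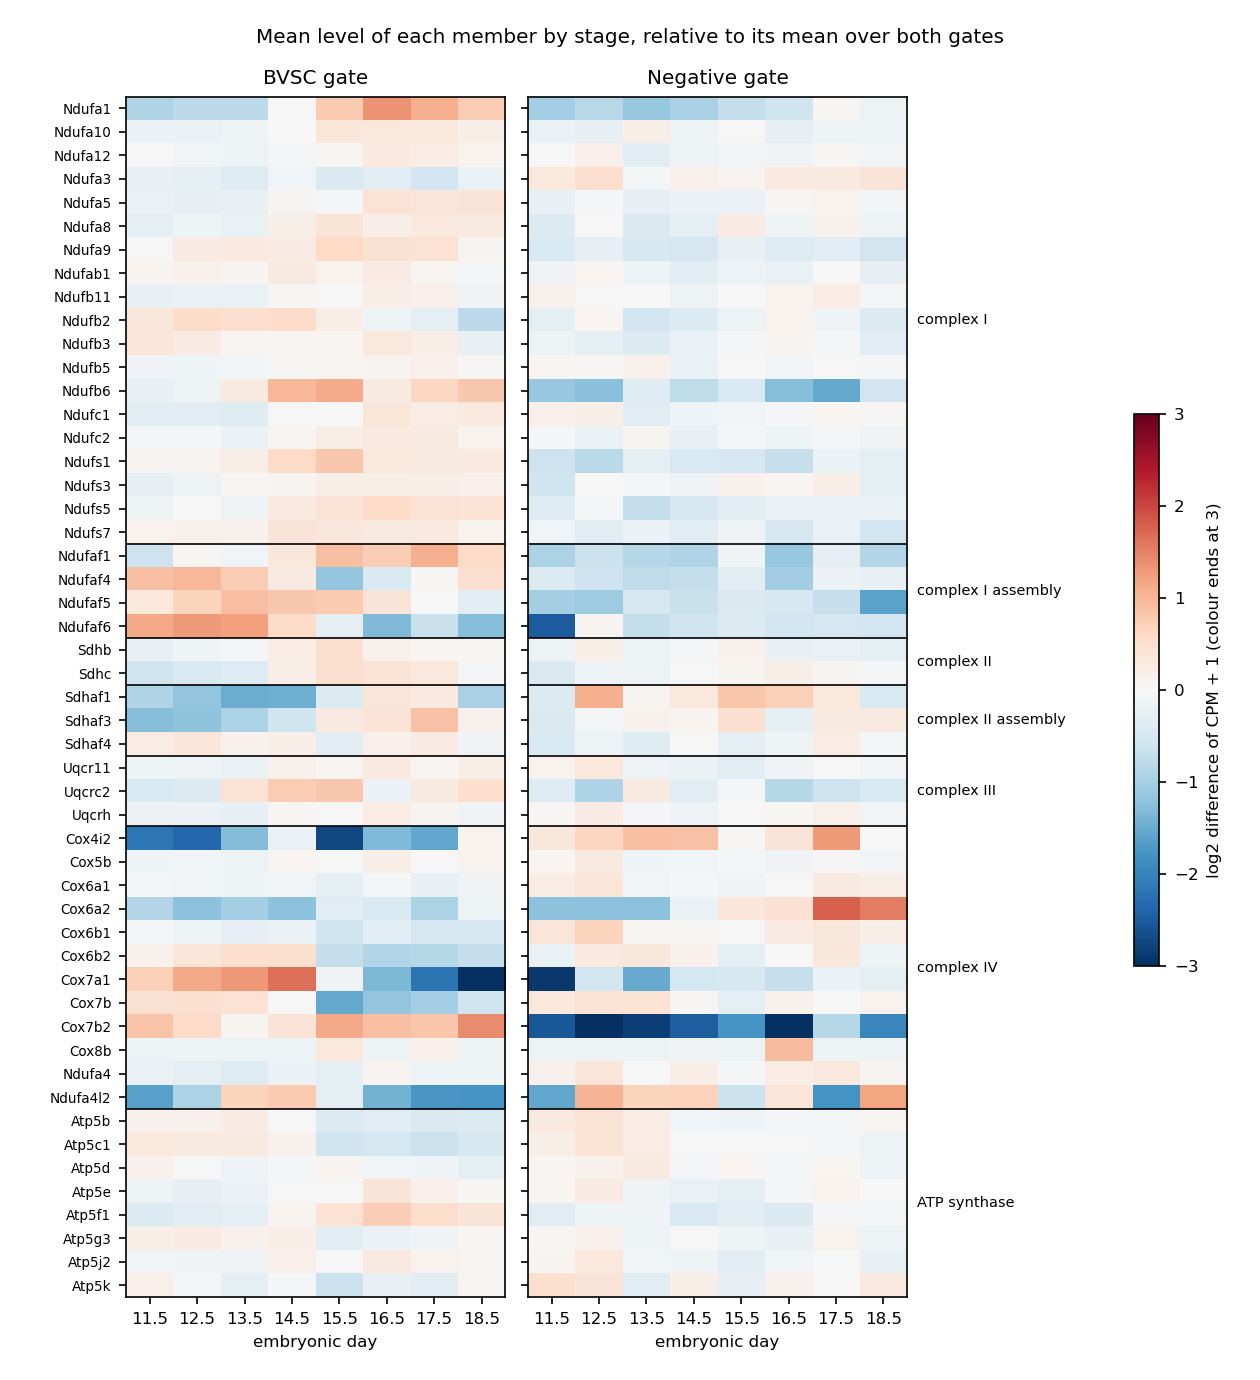
Mean CPM of 51 of the 52 members by embryonic day (x axis) and gate, as the log2 difference of CPM + 1 from the member's mean over the stages of both gates (colour, ending at 3). Rows are grouped by complex. Most structural subunits stay pale. Cox7a1, Cox7b, Cox6b2, Ndufa1 and the assembly factors Ndufaf1, Ndufaf4, Ndufaf6, Sdhaf1 and Sdhaf3 change colour along the BVSC stages. Cox7b2 differs between the gates at every stage.

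Between E11.5 and E14.5 no member was called in BVSC pools by edgeR, against 13.9% of all genes. With the unadjusted p under 0.05 there were 11, and DESeq2 called 5. Leaving out 1 library gave 1 call without library 1, 3, 10, 14, 24 or 25, 2 without 5, 4 without 16 or 18, 5 without 6 and 6 without 26. The median log2 difference of the members was 0.01, and of all tested genes 0.07. Ndufa1 had 256 and 311 CPM at E11.5 against 484 to 582 CPM in the pools of E14.5, groups that did not overlap. Cox7a1 had 190.3 and 163 CPM at E11.5, below the 272 to 413 CPM of E14.5, a log2 difference of 0.75 ± 0.28 (SE, n = 2 and 4 pools) with an edgeR adjusted p of 0.0785.

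Between E14.5 and E16.5, 7 members were called, 3 higher and 4 lower, where 8.81% of all genes were called higher and 7.51% lower. The comparison shares its E14.5 pools with the one before. The self-test on simulated counts recovered 29% of 2-fold and 96% of 4-fold changes of genes at 100 CPM or more in this comparison, so smaller changes could be missed. A call in either direction was made for 1 of 20 complex I members, 1 of 4 complex I assembly factors, 1 of 3 complex II assembly factors, 3 of 11 tested complex IV members and 1 of 8 ATP synthase members. The members' median log2 difference was -0.00, and that of all genes 0.09. Between these stages the median UMIs per BVSC cell went from 260311 to 162965, and the 4 measured pregranulosa markers from a mean of 12.2 CPM to 123.8 CPM, against 436 to 1119 CPM in Negative pools. The part of depth in these results was not tested, and the counts per complex were the same without the cells that went against their gate, apart from 1 further call in ATP synthase.

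Cox7a1, on chromosome 7 (30184144 to 30186078, plus strand, GRCm38), changed most. It had 384, 413, 273 and 272 CPM in the 4 BVSC pools of E14.5, 73.1 and 126 CPM at E15.5, 43.7 and 39.03 CPM at E16.5, 18.7 and 26.2 CPM at E17.5 and 11.3 and 9.70 CPM at E18.5. Every pool from E15.5 on was below every pool of E14.5, and the ranges of E16.5, E17.5 and E18.5 did not overlap. The fall from E14.5 to E16.5 was -3.08 ± 0.32 log2 (SE, edgeR adjusted p = 7.3e-06), and the fall from E16.5 to E18.5 was -1.99 ± 0.34 log2 (adjusted p = 0.0043, n = 2 and 2 pools). Within the libraries whose names begin with s0505, the only ones at E16.5, the mean went from 273 to 41.4 CPM.

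Other complex IV members fell in the same interval. Cox7b, the widely used form of subunit 7b on the X chromosome, had 391, 565, 414 and 396 CPM at E14.5 and 197 and 194 CPM at E16.5, a change of -1.23 ± 0.32 log2 (edgeR adjusted p = 0.0115). It had 91.1 and 217.5 CPM at E15.5 and 234 and 359.9 CPM at E18.5. Cox6b2 had 255, 325, 253 and 237.5 CPM at E14.5 and 101 and 106 CPM at E16.5, a change of -1.42 ± 0.30 log2 (adjusted p = 0.00345). Both members held high values up to E14.5 and low values from E15.5 on, with no overlap between these spans. The call of Cox7b was lost without library 20 or without library 22 (highest adjusted p = 0.0749).

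Cox6b1, Cox6a1 and Cox5b were not called between E14.5 and E16.5, and Cox5b differed by 0.07 ± 0.23 log2 and Cox6a1 by -0.00 ± 0.25 log2. Cox6b2 made up 30.3 ± 1.56% of the UMIs of Cox6b1 and Cox6b2 together at E14.5 (SD, n = 4) and 15.7 ± 0.49% at E16.5 (n = 2), and the pools of these stages did not overlap. Cox7b2 made up 5.77 ± 2.31% of the UMIs of Cox7b and Cox7b2 at E14.5 and 15.4 ± 10.8% at E16.5, with a pool at 7.78% and a pool at 23.04%. At E15.5 that share was 23.2 ± 4.46%. These shares were not tested. Cox7b2 itself had 15.7 to 32.3 CPM in BVSC pools at E14.5, 32.7 and 54.7 CPM at E15.5 and 16.6 and 57.99 CPM at E16.5. It was not called between E14.5 and E16.5, whereas Cox7b was called lower.

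**Figure D3:**
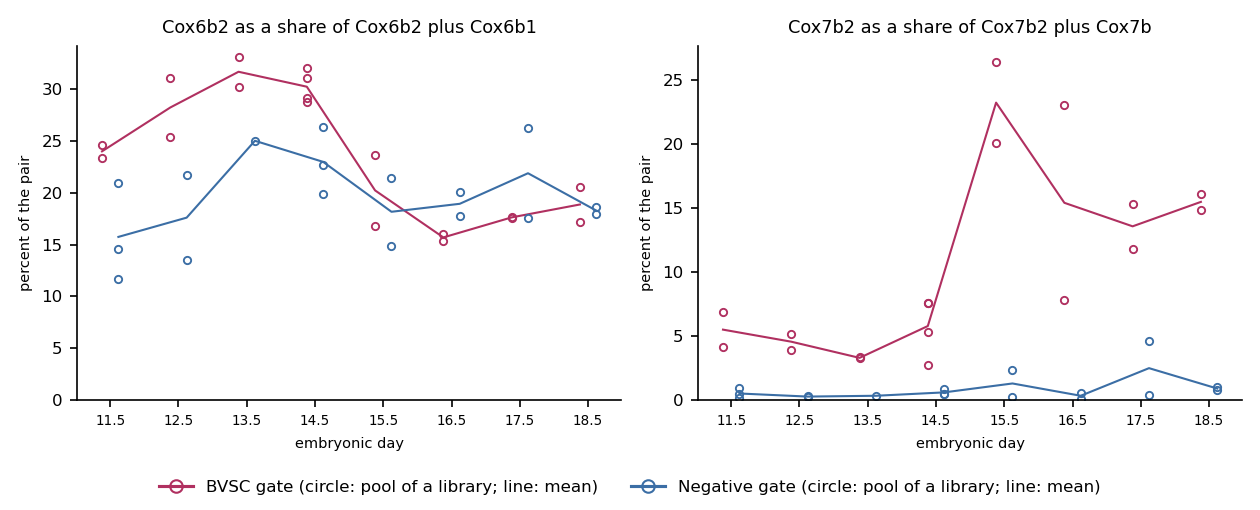
Share of Cox6b2 in the UMIs of Cox6b1 and Cox6b2 (left) and of Cox7b2 in those of Cox7b and Cox7b2 (right), in percent (y axis), by embryonic day (x axis). Circles are pools of single libraries and lines join stage means. In BVSC pools the Cox6b2 share was 30.3% at E14.5 and 15.7% at E16.5, while the Cox7b2 share went from 5.77% at E14.5 to 23.2% at E15.5, and it was at most 4.61% in Negative pools.

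Ndufa1, a small membrane subunit of complex I on the X chromosome (37187588 to 37191163, minus strand), rose. It had 582, 484, 529 and 509.6 CPM at E14.5 and 1280 and 1420 CPM at E16.5, a change of 1.32 ± 0.24 log2 (edgeR adjusted p = 0.00094). The values were 1135 and 695 CPM at E15.5 and 728 and 1067 CPM at E18.5. Every BVSC pool from E15.5 on was above every earlier one. The other 2 X-linked members, Ndufb11 and Cox7b, had other values: Ndufb11 differed by 0.12 ± 0.22 log2 and was not called, and Cox7b fell.

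The complex I assembly factor Ndufaf6, fell. Its levels started at 116 and 133 CPM in the pools of E11.5, and were 64.4, 99.95, 83.5 and 81.8 CPM at E14.5, 25.9 and 17.2 CPM at E16.5 and 27.7 and 16.9 CPM at E18.5. The pools of E11.5 to E13.5 lay above those of E14.5, and those above all later ones. The change from E14.5 to E16.5 was -1.99 ± 0.32 log2 (edgeR adjusted p = 0.00038). Ndufaf4, another assembly factor, had its lowest values at E15.5, 43.8 and 58.0 CPM, after 178 and 254 CPM at E11.5, and was back at 145 and 183 CPM at E18.5. Ndufaf1, a factor of the membrane arm, ran the other way, with 58.3 and 79.2 CPM at E11.5 and 210.3 and 238 CPM at E17.5. Both were called over all stages and not between E14.5 and E16.5.

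Sdhaf1 and Sdhaf3, which help the iron-sulfur subunit of complex II mature, were both called over all stages. Sdhaf1 had 8.21, 9.32, 25.7 and 18.4 CPM at E14.5 and 60.5 and 52.8 CPM at E16.5, a rise of 1.86 ± 0.48 log2 (edgeR adjusted p = 0.0114) that was lost without library 20 or 22 (highest adjusted p = 0.081). At E18.5 it had 32.7 and 11.4 CPM, which overlaps E14.5. Sdhaf3 had 15.04 and 21.7 CPM at E11.5 and 83.1 and 88.9 CPM at E17.5. The exons of Sdhaf1 overlap a gene on the opposite strand, as do those of Atp5f1, and the strand setting of the counting is not given in the sources used here. In all, 17 of the 52 members share exon bases with another annotated gene, among them Ndufs1, Ndufb6, Ndufa3, Ndufa9 and Uqcrc2.

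Atp5f1, the peripheral stalk subunit b of ATP synthase, had 614 to 660 CPM at E14.5 and 914 and 1091 CPM at E16.5. Its rise of 0.62 ± 0.21 log2 (edgeR adjusted p = 0.0474) was lost in 19 of 25 alternative settings. Atp5c1 and Atp5b, which form the rotating shaft and the catalytic sites, were called over all stages with ranges of 1.23 and 0.85 log2, and were not called between E14.5 and E16.5. Between E16.5 and E18.5 Cox7a1 was the only member called, against 0.869% of all genes called lower. The erythroid and macrophage markers, which averaged 13.1 and 1.88 CPM at E16.5, were spread at E18.5 as given above, and Cox7a1 had 9.70 to 11.3 CPM in those pools.

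**Figure D4:**
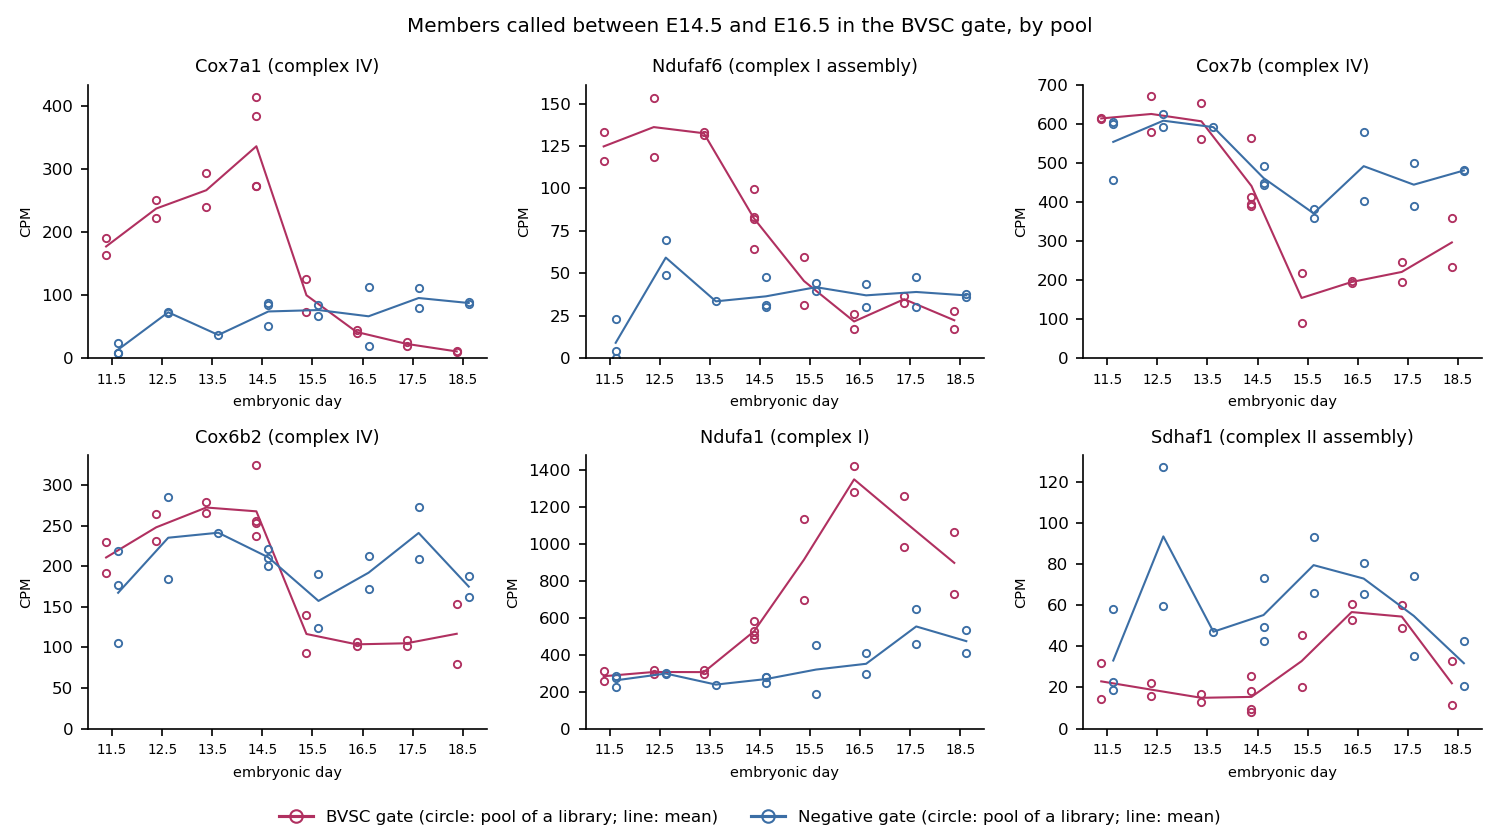
CPM (y axis) of 6 members by embryonic day (x axis), with a circle per pool of a library and lines through the stage means, for the BVSC and Negative gates. In BVSC pools Cox7a1, Ndufaf6, Cox7b and Cox6b2 drop between E14.5 and E16.5 and Ndufa1 and Sdhaf1 rise. In Negative pools Cox7a1 goes from 8.56 to 23.2 CPM at E11.5 to 88.1 and 86.3 CPM at E18.5.

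The Negative gate was tested in a fit of its own, with fewer cells and UMIs. By edgeR's F test 0 of 51 members differed between stages, against 3.35% of 8955 genes, with 7 at an unadjusted p under 0.05 and 7 by DESeq2. Without library 1, 17, 19, 21 or 23 there was 1. The median stage range of the members was 0.69 log2, against 2.24 over all genes in this gate, and in the BVSC gate it was 0.81 log2. The difference between the gates in these ranges was not tested, and members and all genes were not matched for level. Between E11.5 and E18.5 only Cox7a1 was called, where 2.48% of genes were called higher. It had 23.2, 8.56 and 8.64 CPM at E11.5 and 88.1 and 86.3 CPM at E18.5, a rise of 2.57 ± 0.56 log2 (adjusted p = 0.0075, n = 2 and 3 pools). All Negative pools from E12.5 on were above the E11.5 pools of libraries 2 and 7, but the pool of library 23 at E16.5, with 19.6 CPM, was below that of library 1. Without library 7 there were 2 calls.

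The difference of the E11.5 to E18.5 change between the gates was tested in 1 fit over both. It was called for 2 of 52 members, both more negative in BVSC, where 4.53% of 11291 genes were called in that direction. For Cox7a1 the difference was -7.04 ± 0.74 log2 (edgeR adjusted p = 7.2e-08): it went from 190.3 and 163 CPM to 11.3 and 9.70 CPM in BVSC pools and in the opposite direction in Negative pools. For Ndufaf6 it was -4.59 ± 0.84 log2 (adjusted p = 0.00041), with Negative pools at 4.22, 0 and 22.8 CPM at E11.5 and 38.0 and 35.9 CPM at E18.5. The library at 0 makes the size of this fold depend on the model's handling of low counts. Germ cell markers in the Negative pools averaged 140 CPM at E11.5 and 313 CPM at E18.5. Both calls remained when cells against their gate were left out.

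Between the gates, with stage as a covariate, most complex I members were called higher in BVSC pools, and complex IV was mixed. The complex I count was smaller in the libraries that hold both gates, with or without the library as a block. By edgeR 26 of 51 tested members were higher and 5 lower, where 38.7% and 25.8% of 9805 genes were called, and the median log2 difference was 0.24 over the members and 0.34 over all genes. The split moved with the scaling: it was 17 higher and 7 lower with upper-quartile scaling, 18 and 9 with DESeq2, and 21 and 10 with the deposited totals. Complex I had 15 higher and 1 lower of 20, its assembly factors 4 higher of 4, complex III 2 higher of 3, complex IV 1 higher and 3 lower of 11, and ATP synthase 2 higher of 8. With upper-quartile scaling complex I had 10 higher and 1 lower and complex IV 1 higher and 4 lower. The median difference of the ATP synthase members, 0.11 log2, turned to -0.01 with that scaling. The medians of complex I (0.36 and 0.23), its assembly factors (1.09 and 0.98) and complex IV (-0.22 and -0.34) kept their sign. Over all genes the median was 0.34 and 0.21 log2 with these scalings, near that of complex I. Complex II had 1 higher of 2, and its assembly factors 1 higher and 1 lower of 3.

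The same comparison was also made with the library as a block in the 10 libraries that hold both gates, none of them of E15.5 or E16.5. There 11 members were higher and 8 lower, and without the block in the same libraries 11 and 9. Over all genes 4451 were called in either direction with the block and 4534 without it, against 6323 in all pools. The median log2 difference with the block was -0.02 over the members and 0.31 over all genes. With the block 6 of 20 complex I subunits were higher and 1 lower: Ndufb6, Ndufs1, Ndufa9, Ndufa1, Ndufs7 and Ndufs5 stayed higher and Ndufa3 lower. The calls of Ndufa5, Ndufa8, Ndufa10, Ndufab1, Ndufb2, Ndufb3, Ndufc2 and Ndufs3 were lost, with differences of 0.04 to 0.27 log2, and Ndufa12 turned to -0.01 log2. None of these calls was made in the same libraries without the block either. That of Ndufs3 was kept in 16 of 34 alternative settings. In complex IV, Cox6a1 was called lower in that fit (-0.39 ± 0.09 log2), and in ATP synthase so were Atp5b and Atp5k (-0.32 ± 0.10 log2 each), none of which was called in all pools. At E15.5 and E16.5 the gates came from separate libraries, so gate and library cannot be told apart in those pools.

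Cox7b2 differed most. It had 15.7 to 62.8 CPM in the 18 BVSC pools, with a median of 31.9, and 0.579 to 18.9 CPM in the 17 Negative pools, with a median of 2.15. Only the Negative pool of library 24 at E17.5, at 18.9 CPM, reached the BVSC range. The difference was 3.64 ± 0.36 log2 (edgeR adjusted p = 1.3e-10), and 3.69 with the library block. In the BV gate Cox7b2 had 27.5 and 18.3 CPM at E14.5 and 1 UMI, or 2.24 CPM, at E11.5.

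Among complex I subunits the largest differences were those of Ndufb6, a membrane arm subunit, at 1.57 ± 0.17 log2, Ndufa1 at 1.01 ± 0.14 and Ndufs1, the largest core subunit with iron-sulfur clusters, at 0.98 ± 0.10 (edgeR adjusted p at most 1.2e-07). Ndufs1 had 152 to 270 CPM in BVSC pools and 79.2 to 147 CPM in Negative pools, so the gates did not overlap. Ndufs7, another core subunit, also did not overlap, with 424 to 654 CPM against 277 to 417 CPM. Ndufa3 was the only complex I subunit called lower, at -0.40 ± 0.10 log2, with 451 ± 68.0 CPM in BVSC and 657 ± 83.2 CPM in Negative pools (SD, n = 18 and 17). With the library block Ndufa1 differed by 0.51 ± 0.13 log2 and was still called.

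The 4 measured complex I assembly factors were all higher in BVSC pools. Ndufaf5 differed by 1.43 ± 0.24 log2, Ndufaf1 by 1.24 ± 0.15, Ndufaf6 by 0.94 ± 0.36 and Ndufaf4 by 0.91 ± 0.20 (edgeR adjusted p at most 0.0215). The sum of the 4 was 288 to 574 CPM in BVSC and 89.9 to 285 CPM in Negative pools, which did not overlap. With the library block Ndufaf6 differed by 0.97 log2 with an adjusted p of 0.107, and the call was also lost without library 3 or 7.

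Complex IV members lower in BVSC pools were Cox4i2 at -2.81 ± 0.76 log2, Cox6b1 at -0.40 ± 0.10 and Ndufa4 at -0.22 ± 0.09 (edgeR adjusted p at most 0.0353). Cox4i2 was low throughout, at 0 to 13.4 CPM with a median of 1.12 in BVSC and 0 to 19.998 CPM with a median of 9.49 in Negative pools. Cox6b1 had 568 ± 88.1 CPM and 829 ± 150 CPM (SD, n = 18 and 17). Its paralog Cox6b2 was not called between the gates, with 190 ± 78.9 CPM in BVSC and 199 ± 45.7 CPM in Negative pools. The call of Ndufa4 was lost without library 4, 8, 9, 12, 14 or 20. Cox7a1 was not called over all stages, at 1.01 ± 0.51 log2 (adjusted p = 0.0829), and the order of the gates turned along the stages: every BVSC pool was above the Negative pools of its stage up to E14.5 and below them at E17.5 and E18.5.

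In complex III, Uqcrc2, a core protein, was higher by 0.82 ± 0.18 log2, and Uqcr11 by 0.24 ± 0.09 log2, a difference that was -0.12 with the library block and -0.11 in the same libraries without it. In complex II, Sdhb was higher by 0.29 ± 0.10 log2, with -0.02 under the block and -0.01 in the same libraries without it, and the assembly factor Sdhaf1 was lower by 0.98 ± 0.24 log2 in BVSC pools. In ATP synthase, Atp5f1 was higher by 0.54 ± 0.09 log2 and Atp5j2 by 0.24 ± 0.09 (edgeR adjusted p at most 0.0255 for these members). Atp5f1 differed by 0.15 log2 with the block and was no longer called, and Atp5j2 by -0.10, and in the same libraries without it the values were 0.16 and -0.09. Over 34 alternative settings the call of Uqcr11 was kept in 15, that of Atp5j2 in 18 and that of Sdhb in 25. Atp5k and Atp5g3, the subunits e and c, were not called, with 500.2 ± 97.5 and 372 ± 58.1 CPM in BVSC and 625 ± 134 and 351 ± 43.5 CPM in Negative pools.

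**Figure D5:**
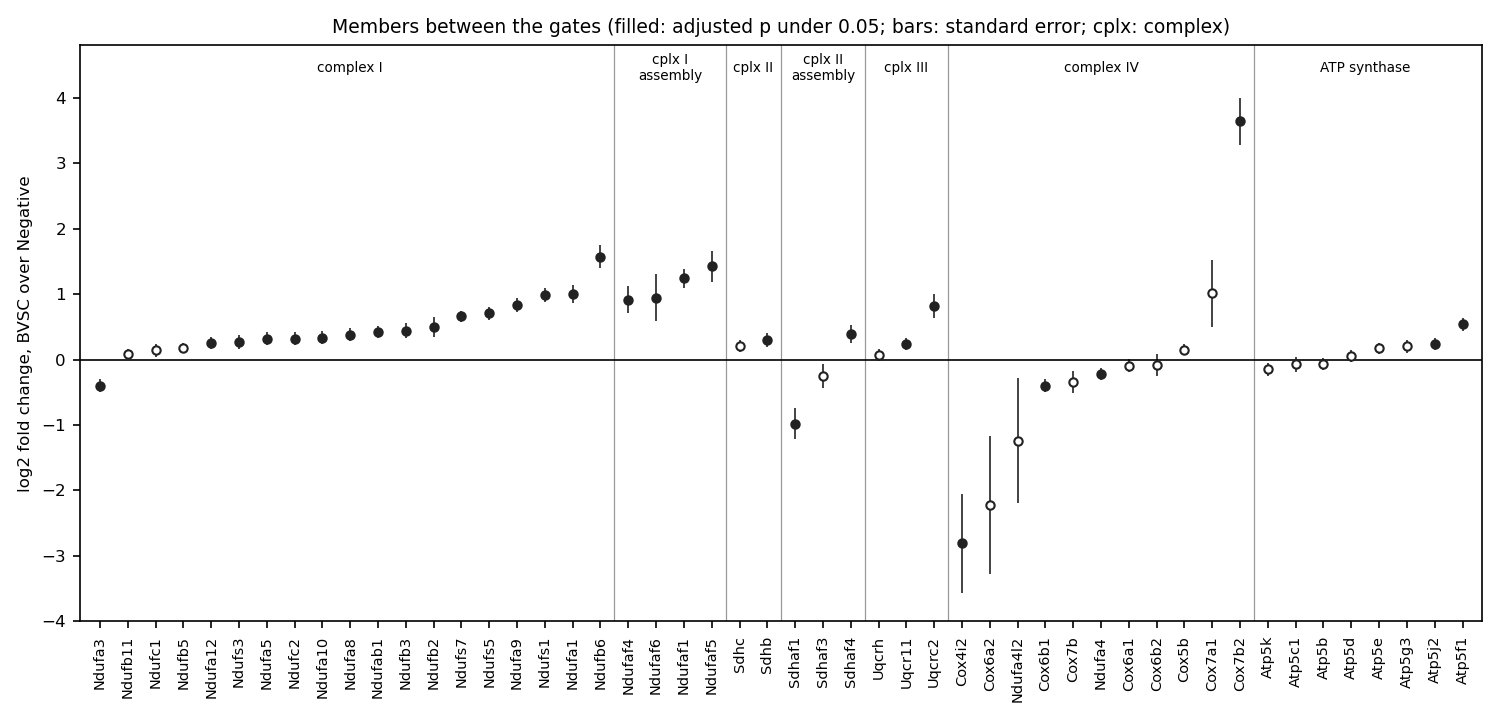
Log2 fold change of BVSC over Negative pools (y axis) for 50 of the 51 tested members, ordered by size within each complex (x axis). Points are edgeR estimates with stage as a covariate, bars are standard errors, and filled points passed an adjusted p of 0.05. Complex I and its assembly factors lie mostly above 0, and complex IV spans -2.81 for Cox4i2 to 3.64 for Cox7b2.

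The BV pools of E14.5 are set beside the BVSC pools of the same libraries, 4 and 5. Cox7a1 had 334 and 352 CPM there and 384 and 413 CPM in BVSC pools, and Ndufaf6 66.4 and 69.7 against 64.4 and 99.95 CPM. Complex I summed to 8573 and 9761 CPM in BV and 9200 and 8887 CPM in BVSC pools. Other members lay further apart: in library 5 Ndufaf4 had 74.3 CPM in the BV and 183 CPM in the BVSC pool, Cox7b 331 and 565 CPM and Sdhaf1 32.2 and 9.32 CPM, and in library 4 Sdhaf3 had 12.9 and 39.8 CPM and Ndufs1 136 and 238 CPM. These differences have no test. The E11.5 BV pool, whose macrophage markers are given above, had 8.95 CPM of Cox7a1, 15.7 CPM of Cox6b2 and 1068 CPM of Cox6b1.

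Other genes of the pathway were counted from fixed lists. Of 10 tested genes of the tricarboxylic acid cycle and pyruvate dehydrogenase, 6 fell and 0 rose in BVSC pools between E14.5 and E16.5, with a median of -0.73 log2 against 0.09 over all genes (4 fell with upper-quartile scaling). Pdha1, the X-linked E1 alpha subunit of pyruvate dehydrogenase, went from a mean of 90.6 to 19.3 CPM (-2.27 ± 0.39 log2, edgeR adjusted p = 0.00062). Of 37 genes of the mitochondrial ribosome 4 fell and 0 rose (median -0.41), of 17 assembly factors of complexes III to V and others 2 rose and 0 fell, and of 15 electron carrier genes 1 rose and 4 fell. Cyct, the testis form of cytochrome c, was among those that fell, by 1.82 ± 0.32 log2 (adjusted p = 0.00076). In the same interval 6 of 13 glycolysis genes fell and 0 rose. Of all genes tested 8.81% rose and 7.51% fell, so the counts of the mitochondrial ribosome and of the assembly factors were near those shares.

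Between the gates 28 of 37 mitochondrial ribosome genes were higher and 0 lower in BVSC pools, with a median of 0.50 log2 against 0.34 over all genes (18 higher and 1 lower with the library block), 7 of 10 biogenesis and mitochondrial DNA genes were higher and 1 lower, and 9 of 15 electron carrier genes were higher and 3 lower. Glycolysis genes were lower in 11 of 13 and higher in 0. In the fit over all pools, without the library block, 38.7% of all genes tested were higher and 25.8% lower. The higher biogenesis genes included Nrf1 at 1.17 ± 0.16 log2 and Tfam, which packages and transcribes mitochondrial DNA, at 0.67 ± 0.15, and the lower one was Ppargc1a at -2.71 ± 0.77 (edgeR adjusted p at most 0.0028), which had 0.612 CPM in BVSC and 2.90 CPM in Negative pools. Cyct was higher by 4.33 ± 0.33 log2, with 157 ± 77.2 CPM in BVSC and 8.52 ± 5.77 CPM in Negative pools (SD, n = 18 and 17). Slc25a31, the germ cell form of the ADP/ATP carrier, was higher by 3.90 ± 0.35 log2 and Slc25a5, a widely used form, lower by 1.10 ± 0.29 log2 in BVSC pools. In BVSC pools Slc25a5 went from a mean of 724 CPM at E11.5 to 348 at E14.5 and 98.1 at E16.5, and Slc25a31 from 49.4 to 354 and 522 CPM.

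Genes whose levels ran most like those of a member were ranked by Spearman's rho over the 18 BVSC pools among 3945 genes with a mean of at least 20 CPM, as a description without a test. Each pool is from a library of its own, and pools share stages. For the sum of structural subunits these were Pdcd5 (rho = 0.96), Sec62, Minos1, Dnajc19 and Gm11808. For Cox7a1 they were Wfdc2 (0.95), Sct, Prim1, Clspn and Rcn1, for Ndufaf6 Prdm14 (0.98), Ak1, Lhpp, Zfp428 and Slc25a22, for Ndufa1 Chchd7 and Hormad1 (0.96 each), Ccdc28a, Smim8 and Romo1, and for Cox7b Nudc and Phb2 (0.98 each), Bub3, Ube2c and Fkbp4.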

How the data were processed

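The authors deposited raw UMI counts per gene and cell from a modified STRT-seq protocol, with a table of each cell's stage, library, gate and UMI total (also a count, deposited by the authors). The submitters' processing notes name STAR, UMI-tools, featureCounts, Subread, CASAVA 1.8 and the mm10 build. What each did, the filters and the strand setting: not given in the sources used here. Stage and gate came from that cell table, and libraries are numbered 1 to 26. The count table read here ends within a line, which was left out, and its 16344 genes carry 40.1% to 56.4% of the UMIs of a cell (median 51.2%). Depth per pool is given with the results.

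All 1881 deposited cells were kept, with no doublet caller, and 2 fell outside pools of at least 5 cells. CPM was scaled by the deposited totals. Summed counts were tested with edgeR 4.0.16 (R 4.3.3; quasi-likelihood, TMM, filterByExpr, Benjamini-Hochberg adjustment over all genes at 0.05), with pools as replicates, and p-values then reflect only how far libraries differ, possibly for technical reasons. Standard errors are the absolute log2 fold change over the square root of F. The BVSC and Negative pools had a fit each with a mean per stage, and a joint fit gave the gate comparison and the difference of stage effects. Alternatives were DESeq2 1.42.0, upper-quartile scaling, deposited totals, no filter, pools of at least 10 cells, cells against their gate left out, each library left out, the library as a replicate block (10 libraries hold both gates, and pools of 1 library share its preparation), libraries merged by deposited replicate and, chosen after seeing the data, the library name series (names beginning s0307 or s0505) and only libraries with both gates.

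The scripts were tested on simulated data. The members and lists were chosen with earlier results of these data known. Named members are, per complex, up to 3 called members with the largest change, the most abundant one and each measured paralog, and others were chosen after their values were seen. Positions come from GENCODE vM21 (GRCm38) and promoters from RefSeq (GRCm38.p6). Figures were drawn with matplotlib. Of the members, 1 enters the counts and sums but is not reported here by itself.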

Additional observations from a re-analysis of the deposited data

Results flagged for a closer look

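The E11.5 to E18.5 change differed between the gates by -7.04 log2 for Cox7a1 and by -4.59 log2 for Ndufaf6 (BVSC minus Negative, edgeR interaction test, adjusted p = 7.2e-08 and 0.00041). Cox7a1 was lower at E18.5 in 2 of 2 BVSC pools and higher in 2 of 2 Negative pools than in any pool of E11.5 of the same gate.

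Among the 4 BVSC pools of E14.5, single pools stood apart from the other 3 by Dixon's test at the 95% level for 4 members: library 4 for Cox4i2, with 13.4 CPM, and library 5 for Cox7b, with 565 CPM, Ndufaf4, with 183 CPM, and Ndufa4l2, with 12.1 CPM. A total of 59 such groups were tested, and chance flags about 1 in 20.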

How the results depend on the processing

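The number of members called between E14.5 and E11.5 in BVSC pools was 0 and rose to 6 with deposited totals, 5 with DESeq2, 7 without a filter and 2 with the library name series as a covariate (0 to 6 leaving out 1 library). Between E16.5 and E14.5 it was 7, and 11 with deposited totals and 11 without a filter (4 to 11: 4 without library 20 or 22, 11 without 6 or 26). Between E18.5 and E16.5 it was 1, and 2 without a filter (1 leaving out any library). Over the Negative stages it was 0, and 7 with DESeq2, 3 without a filter, 2 without cells against their gate and 1 with the name series (0 to 1); E18.5 against E11.5 gave 1 to 2. Over the BVSC stages it was 16, with 13 to 22 under the alternatives and 12 to 21 leaving out 1 library. Between the gates it was 31, with 27 to 34 leaving out 1 library, 19 with the library as a replicate block and 20 without the block in the same libraries. The difference of stage effects gave 2 to 3. In the 10 libraries with both gates Sdhb was -0.016, Atp5j2 -0.10, Uqcr11 -0.12 and Ndufa12 -0.0096 log2 with the block, and the first 3 were -0.0071, -0.092 and -0.11 without it, so these 3 were below 0 in those libraries in both fits, and Ndufa12 was 0.0023 without it. Calls of Cox7a1, Ndufa1, Ndufaf6 and Cox6b2 between E14.5 and E16.5 and of Cox7b2, Ndufb6, Ndufs1 and Cox6b1 between the gates were kept in every alternative run. Complex sums moved by less than the spread over stages when taken over table genes or as medians over cells. With 4 BVSC pools at E14.5 and 2 at E16.5, 2-fold changes of genes of at least 100 CPM were recovered in 29% of simulated cases. Cox8b was too low to test except in the difference of stage effects, where all 52 members were tested.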
